A study of Rattus norvegicus with 4 samples.

Results

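The 8 genes described here are Nfe2l2, Keap1, Nqo1, Osgin1, Pgd, Taldo1, Tkt and Me1: the transcription factor NRF2, its inhibitor, a pair of its target genes, and enzymes of the pathways that supply NADPH. They were chosen by gene symbol, through the accession of each array probe, and all 8 were among the 16578 genes with a value on every array. RNA came from NR8383 cells, an established line of alveolar macrophages from the lung lavage of a normal rat. The cells had gone through 20 passages, were seeded for 48 h, and spent 4 h with the carboxylated carbon nanotube material NRCWE042 at 6.8 cm2 of nanotube surface per cm2. The 4 biological replicates of this exposure form 1 group and were each read on a one-colour array. The study set exposed cells against unexposed cells; the unexposed samples were not analysed here, so no value below is an effect of the nanotubes, and no test between conditions was made.

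NRF2, the product of Nfe2l2, binds antioxidant response elements together with small MAF proteins and drives genes for detoxification, glutathione synthesis and NADPH supply. KEAP1 is the adaptor through which a cullin ubiquitin ligase marks NRF2 for degradation, and modification of its reactive cysteines by oxidants or electrophiles lets NRF2 accumulate. Control of NRF2 is therefore largely at the protein level, which an RNA array does not see. In macrophages NADPH feeds both the oxidase that makes superoxide and the glutathione and thioredoxin reductases that remove peroxides.

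The line's identity was checked against marker genes. Over all measured genes, 44.4% were detected, meaning well above background on all 4 arrays. Of 14 measured macrophage markers, 12 were detected, among them Cd68, Spi1, Pparg and Csf1r, while Marco and Adgre1 were not. None of 8 lung epithelial and none of 4 measured neutrophil markers was detected. Among the markers of other cell types, 1 of 6 for fibroblasts (Dcn), 3 of 4 for endothelium (Pecam1, Cdh5 and Vwf) and 2 of 4 for lymphocytes (Cd3d and Nkg7) were detected. Sample probes had a 75th-percentile signal of 128 on replicate 1, 131 on replicate 2, 98.5 on replicate 3 and 49.0 on replicate 4, the dimmest. On replicate 3, 14 of 448 blocks of neighbouring spots were low; 0 of the 8 genes had a spot there, beside 4.28% of detected genes.

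The promoter sequences show where these genes carry the letters that NRF2 is known to bind. The windows were RefSeq promoters of the GRCr8 assembly, from 250 bases before to 50 bases after each gene's start, and all 8 genes had one. The core of the antioxidant response element, TGACNNNGC on either strand, was found in 2 of the 8 windows (25%) and in 4038 of 33469 windows of the whole table (12.1%). The pair with a match is printed below with the core in capitals. With it is the upstream sequence of Nqo1, a textbook NRF2 target without a match in this window, where the capitals mark the letters TATAAA. The regions, all on the minus strand, are chr8:96540245-96540494 for Me1, chr3:81028950-81028979 for Nfe2l2 and chr19:52220268-52220517 for Nqo1.
Me1: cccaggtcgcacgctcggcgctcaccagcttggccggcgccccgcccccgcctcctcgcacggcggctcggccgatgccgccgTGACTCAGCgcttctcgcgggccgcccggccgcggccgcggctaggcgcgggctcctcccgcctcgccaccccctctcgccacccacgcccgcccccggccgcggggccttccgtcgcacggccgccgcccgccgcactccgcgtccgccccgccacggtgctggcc
Nfe2l2: actgctccgactagccatTGACGCCGCctc
Nqo1: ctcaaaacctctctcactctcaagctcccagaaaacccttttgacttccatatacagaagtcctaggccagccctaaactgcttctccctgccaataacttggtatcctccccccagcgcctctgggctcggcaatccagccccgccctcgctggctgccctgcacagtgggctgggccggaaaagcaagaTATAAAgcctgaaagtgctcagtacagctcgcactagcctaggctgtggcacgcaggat

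In Me1 the core read TGACTCAGC and began 167 bases before the start site, in a sequence with 83.2% G or C against a median of 51.2% over all upstream sequences. In Nfe2l2 the core read TGACGCCGC and began 39 bases after the start site, so that 30 bases of the window's end are shown. In Nqo1 the letters TATAAA, those of a TATA box, began 59 bases before the start site. The same letters were found in 8.06% of all upstream sequences, and whether they act as a TATA box here was not tested. The windows of Keap1, Osgin1, Pgd, Taldo1 and Tkt held no match to the core. A match to the core or to TATAAA is a description of the letters and not a sign of binding in these cells, and elements outside the windows were not searched.

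All 8 genes were detected, meaning that their probe was well above background on all 4 arrays; 44.4% of the measured genes were. Each had 1 probe that could be named, none was saturated, and 6 of them rested on 1 spot per array. Any further probe of these genes among the 24489 unnamed sample probes was not used. A level is log2 of the background-corrected signal minus the 75th percentile of that array's sample probes, so 0 is the 75th percentile. Because probes differ in affinity, levels are set against other arrays for the same gene and not against other genes. The same levels were also computed with the arrays scaled by quantile normalization, by the detected probes or by the spike-in RNA added to each sample. Another alternative was normexp, a different way of removing background, which here also added 50 to every signal. For comparison, the 75th-percentile signal of replicate 4 was 49.0. Adding 50 narrows log2 differences between dim signals. The 75th percentile subtracted was also that of signals with 50 added, so the offset enters the level of every gene, bright ones included. Nfe2l2, for one, had 3.41 on replicate 4 with normexp against 4.52 on the scale used, and 3.97 against 4.65 on replicate 1. A change with normexp is therefore not one of background removal alone.

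**Figure D1:**
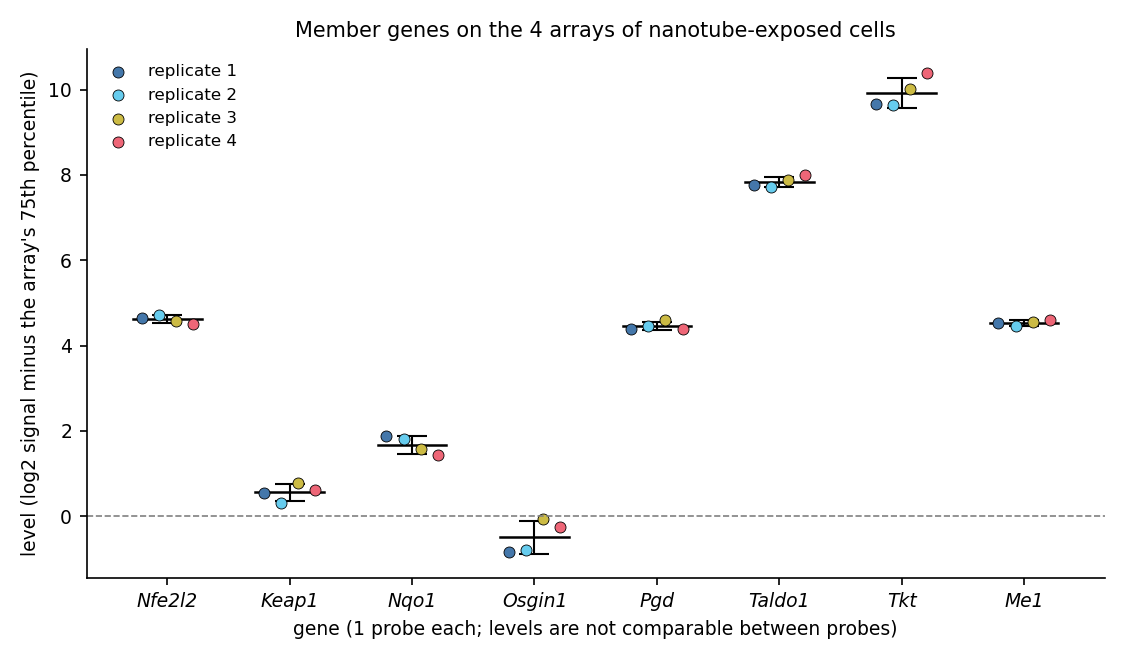
Level of each gene on the 4 arrays (log2 signal minus the array's 75th percentile), with 1 point per replicate and the mean ± SD over 4 arrays. On this scale Tkt and Osgin1 had SDs of 0.35 and 0.39, and Me1 and Nfe2l2 of 0.07 and 0.09; with normexp background correction Tkt and Osgin1 had the smallest SDs of the 8, 0.12 and 0.14.

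Nfe2l2, which encodes NRF2 itself (chromosome 3), had levels of 4.65, 4.73, 4.57 and 4.52 on replicates 1 to 4, a mean of 4.62 ± 0.09 (SD, n = 4). The values lay close together, with a 1.16-fold range, and replicates 1 and 2 were slightly above replicates 3 and 4. Its probe ranked between percentiles 93.1 and 94.3 of all sample probes. The pair of spots that carry this probe differed by 0.05, 0.07, 0.19 and 0.09 log2 within an array, so the range of 0.21 log2 between arrays was about the size of the widest gap between spots on 1 array. Its SD was at percentile 11.2 of the SDs of all detected genes, and this closeness rests on the scaling. The SD was 0.16 with detected-probe scaling, 0.20 with quantile normalization, 0.31 with normexp background correction (percentile 69.7) and 0.74 with spike-in scaling (percentile 68.6).

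Keap1, the repressor of NRF2 (chromosome 8), had levels of 0.54, 0.32, 0.79 and 0.62, a mean of 0.57 ± 0.20 (SD, n = 4). Replicate 2 was the lowest and replicate 3 the highest, 1.39-fold apart. Without replicate 2 the SD was 0.13, and with spike-in scaling it was 0.55. Its signal lay between 75.6 on replicate 4 and 186 on replicate 1, above the brightest of the 308 negative control spots on each array, which reached 18.9, 23.4, 114 and 17.7. The gap between Nfe2l2 and Keap1 was 4.10, 4.41, 3.79 and 3.89 log2; its size has no meaning across 2 probes, and its change between arrays, 1.54-fold, does not depend on how the arrays are scaled as a whole.

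Nqo1, the quinone reductase that is among the most used readouts of NRF2 activity (chromosome 19), had levels of 1.88, 1.81, 1.58 and 1.43, a mean of 1.68 ± 0.21 (SD, n = 4). Replicates 1 and 2 were above replicates 3 and 4. They stayed above them with quantile, spike-in and detected-probe scaling and with normexp. With scaling on the spike-in RNA the levels were 2.33, 2.38, 1.42 and 0.59, so the SD widened to 0.85; with normexp it was 0.42. Relative to detected genes of similar level, Nqo1 lay 0.23 and 0.13 higher on replicates 1 and 2, and its shift was -0.15 and -0.23 on replicates 3 and 4.

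Osgin1, which encodes an oxidative stress-induced growth inhibitor (chromosome 19), had levels of -0.84, -0.79, -0.07 and -0.26, a mean of -0.49 ± 0.39 (SD, n = 4). Here replicates 1 and 2 were below replicates 3 and 4, the opposite of Nqo1, with a 1.71-fold range. With spike-in scaling the levels were -0.40, -0.23, -0.23 and -1.11, replicate 4 became the lowest, and that order was lost. Osgin1 had the lowest signal of the 8 genes on each array, from 40.9 on replicate 4 to 94.0 on replicate 3, where 3 negative control spots were well above background and the brightest of them reached 114. The software's own error was 12% of the signal on replicate 1 and 15.2% on replicate 4. Its SD was at percentile 74.4 of those of detected genes. With normexp, where the added 50 was within the range of these signals, the SD was 0.14 (percentile 20.0). With spike-in scaling it was 0.42 (percentile 30.6).

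The oxidative branch of the pentose phosphate pathway makes NADPH, and Pgd encodes one of its enzymes, phosphogluconate dehydrogenase (chromosome 5). Its levels were 4.39, 4.47, 4.60 and 4.38, a mean of 4.46 ± 0.10 (SD, n = 4). Replicate 3 stood slightly above the others, and without it the SD was 0.05. With normexp the SD was 0.33 and with spike-in scaling 0.67. Pgls, the lactonase of the same branch, had levels of 6.23, 6.11, 6.89 and 7.09 (6.58 ± 0.48). Its SD was 0.36 with quantile normalization, above that of Pgd (0.13). With normexp it was 0.20 and with spike-in scaling 0.23, below those of Pgd. Replicate 4 was the lowest for Pgls with spike-in scaling (6.24).

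Taldo1 and Tkt encode transaldolase and transketolase, which carry carbon between pentose phosphates and glycolysis in the non-oxidative branch and do not reduce NADP themselves. Taldo1 (chromosome 1) had levels of 7.75, 7.73, 7.88 and 7.99, a mean of 7.84 ± 0.12 (SD, n = 4). Replicates 3 and 4 were above replicates 1 and 2; with spike-in scaling this turned round to 8.20, 8.29, 7.72 and 7.14, and with quantile normalization the levels lay between 7.81 and 7.86. The SD was 0.53 and 0.02 in these cases. Its probe was printed on 10 spots, and the same spot was left out on every array. The other 9 spots gave an SD within an array of 0.04, 0.04, 0.10 and 0.05, against 0.12 between arrays. The spots scattered most on replicate 3.

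**Figure D2:**
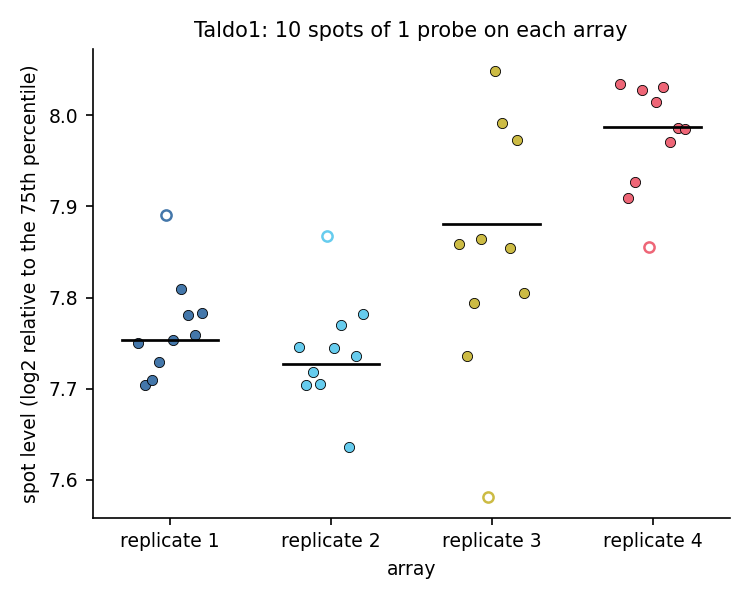
Level of every Taldo1 spot on the 4 arrays (log2 signal minus the array's 75th percentile), with the left-out spot of each array as an open circle and bars at the level used. The 9 kept spots had an SD of 0.04 on replicates 1 and 2, 0.10 on replicate 3 and 0.05 on replicate 4.

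Tkt (chromosome 16) had levels of 9.66, 9.64, 10.00 and 10.38, a mean of 9.92 ± 0.35 (SD, n = 4). Replicate 4 was the highest, and without it the SD was 0.20. With quantile normalization and with normexp the SD was 0.14 and 0.12. The processed signal behind these levels was 103563 on replicate 1, 101126 on replicate 3 and 65359.9 on replicate 4, so the unscaled signal of replicate 4 was the lowest. With spike-in scaling the levels were 10.11, 10.21, 9.84 and 9.53, and replicate 4 was then the lowest as well. The 216 detected genes with a mean level of 8 or more had a median shift of -0.14, -0.17, 0.02 and 0.29 from their own means on replicates 1 to 4. Less these medians, the shifts of Tkt were -0.12, -0.11, 0.06 and 0.17.

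Me1, the cytosolic malic enzyme that makes NADPH while turning malate into pyruvate (chromosome 8), had levels of 4.52, 4.45, 4.56 and 4.60. The mean was 4.53 ± 0.07 (SD, n = 4), the range was 1.11-fold, and no array stood apart. The SD was at percentile 5.69 of the SDs of detected genes. Without replicate 2 the SD was 0.04, and it was 0.23 with normexp and 0.59 with spike-in scaling.

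Over the 8 genes the median SD was 0.16, with a range of 0.07 to 0.39, beside a median of 0.25 over all 7363 detected genes. With normexp background correction the medians were 0.22 and 0.23, and with spike-in scaling 0.57 and 0.58. No value of the 8 was over 1 log2 unit away from the other arrays' median, a distance that 8.88% of detected genes passed on some array. Osgin1 on replicate 3 and Tkt on replicate 4 came nearest, each 0.72 above that median. A mean over 4 arrays at the median SD of the 8 has a 95% interval of 0.25 log2 to either side, or 1.19-fold.

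**Figure D3:**
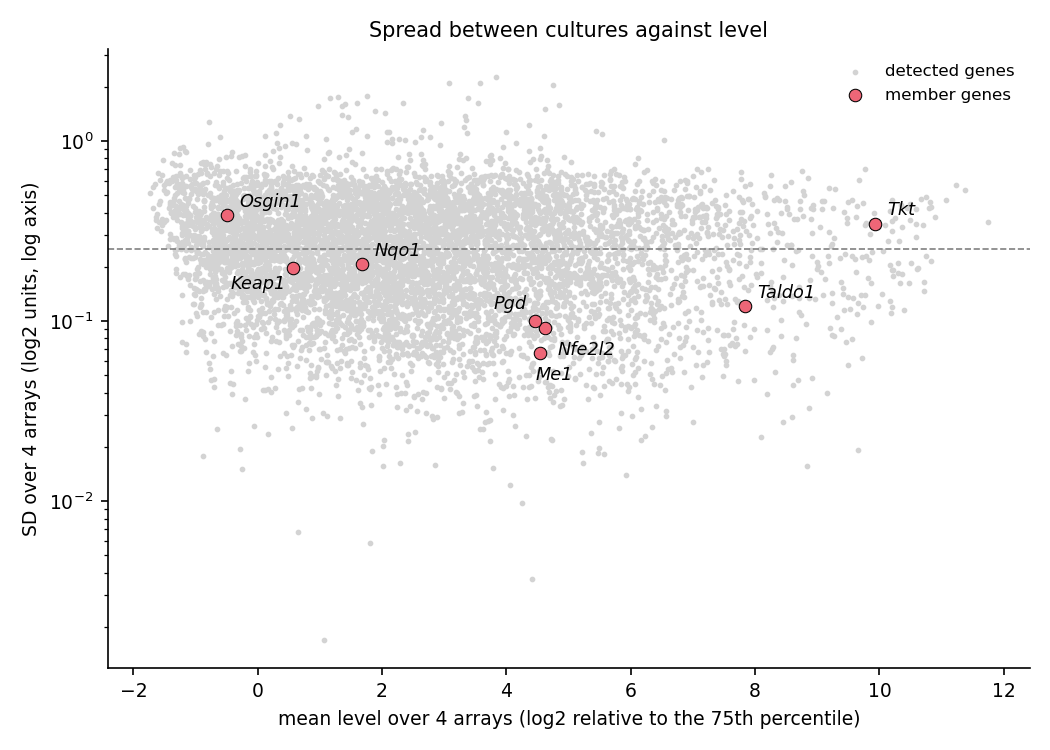
SD over the 4 arrays (log2 units, log axis) against mean level for the 7363 detected genes, with the 8 genes named and a dashed line at the median SD of all. Osgin1 and Tkt lie above the median SD of 0.25, and the other genes below it; with normexp, where that median was 0.23, Osgin1 (0.14) and Tkt (0.12) lay below it and Nqo1 (0.42), Pgd (0.33) and Nfe2l2 (0.31) above it.

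The shift of a gene is its level on an array minus its own mean over the arrays. The median shift of the 8 genes was -0.05, -0.10, 0.06 and 0.06 on replicates 1 to 4, beside -0.07, -0.07, 0.06 and 0.10 over all detected genes. Of the 8 genes, 2, 3, 6 and 5 lay above their own mean on these arrays, where 38.7%, 41.9%, 61.9% and 59.6% of detected genes did. On replicate 1 the genes above their mean were Nfe2l2 and Nqo1, and on replicate 2 Pgd joined them by 0.01. The signs rest on the scaling. With the spike-in RNA as reference the median shift was 0.40, 0.47, -0.10 and -0.79 for the 8 genes and 0.38, 0.50, -0.10 and -0.75 for all detected genes.

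**Figure D4:**
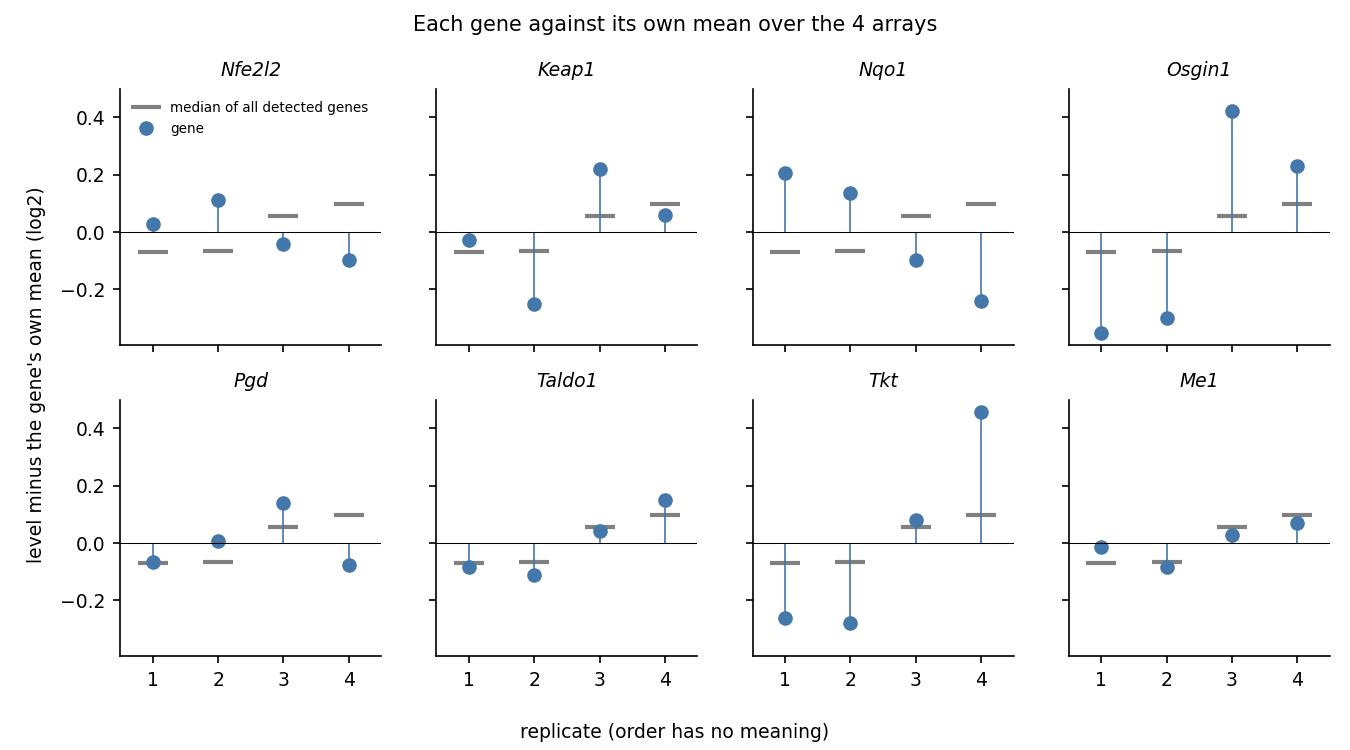
Shift of each gene from its own mean on the 4 arrays (log2), with 1 point and stem per replicate and a grey bar for the median of all detected genes. Nqo1 lies above 0 on replicates 1 and 2 (0.20 and 0.14), and Osgin1 (-0.35 and -0.30) and Tkt (-0.26 and -0.28) lie below it there.

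How alike 2 genes ran over the arrays was measured as the root mean square difference of their shifts, which no constant added to a whole array can change. Among the 28 pairs, Taldo1 and Me1 were closest, with 0.05 log2. They were not under every alternative: Nfe2l2 and Pgd were closer with normexp (0.051 against 0.062) and without replicate 3 (0.057 against 0.062), and Keap1 and Pgd without replicate 2 (0.039 against 0.061). Their gap was 3.23, 3.28, 3.32 and 3.38 log2, a 1.11-fold range. From Taldo1, 5.00% of the detected genes were as close or closer, and from Me1 4.12%, so many other genes ran as near to either. Pgd and Me1 followed with 0.11, and Nfe2l2 differed from both Pgd and Nqo1 by 0.12.

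At the other end, Nqo1 and Osgin1 differed by 0.50 log2, the largest value among the pairs on this scale. The gap of Nqo1 over Osgin1 was 2.72, 2.60, 1.64 and 1.70 log2 on replicates 1 to 4, which is a 2.11-fold range. The gap was wide on replicates 1 and 2 and narrow on replicates 3 and 4. Leaving out any 1 array gave differences of 0.44 to 0.50, and normexp gave 0.48. Nqo1 and Tkt came next with 0.48 and a 2.24-fold range of their gap, and they were the farthest pair without replicate 1 (0.45 against 0.44) and without replicate 3 (0.54 against 0.46). With normexp Keap1 and Nqo1 were the farthest, at 0.49. Taldo1 and Tkt, which act in the same branch, differed by 0.20, and Nfe2l2 and Keap1 by 0.24. From Nqo1, 78.9% of detected genes were closer than Osgin1 was. These are descriptions over 4 arrays, with no test.

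The 5 detected genes nearest to the median profile of the 8 were Slfn2, Magi1, Eif3i, Nme1 and Vps33a, at root mean square differences of 0.0062, 0.0076, 0.0085, 0.012 and 0.012 log2. The median over the 7355 other detected genes was 0.22, and 1181 of them lay within 0.1, so the median profile of the 8 was a common one on these arrays.

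The wider pathway was read from 4 gene lists. Of 16 measured regulators of NRF2, 13 were detected (81.2%, beside 44.4% of all measured genes), and Nfe2l3, Mafk and Bach2 were not. The median SD of the 13 was 0.16, beside 0.25 over all detected genes. Nfe2l3 and Bach2 were well above background on none of the arrays. Mafk, another small MAF gene, was well above background on replicates 1, 2 and 4. It failed only on replicate 3, where its spot lay in a low block. Cul3, the cullin that works with KEAP1, had levels of 1.70, 1.80, 1.80 and 1.52 (1.71 ± 0.13) on its brightest probe. Its other probe was well above background on none of the arrays. With spike-in scaling the brightest probe had 2.15, 2.36, 1.64 and 0.67, with an SD of 0.76. Bach1, a repressor that competes with NRF2 for its elements, had levels of -0.48, -0.19, -0.17 and -0.21. Mafg, a small MAF partner of NRF2, had levels of 3.13, 3.09, 4.03 and 4.30 (3.64 ± 0.62), and replicate 4 lay 1.17 above the median of the others. With spike-in scaling its levels were 3.58, 3.65, 3.87 and 3.45, and replicate 4 was the lowest. Sqstm1, whose product p62 binds KEAP1, had levels of 8.41, 8.33, 9.05 and 9.36 (8.79 ± 0.50) on its brightest probe. The other probes had means of 6.40 ± 0.32 and 6.28 ± 0.14. With spike-in scaling the brightest probe had 8.86, 8.90, 8.89 and 8.51, lowest on replicate 4. Gsk3b, a kinase that marks NRF2 for another ligase, had 1.74, 1.90, -0.36 and 1.13, with the probe's spot in a low block on replicate 3; on its probe with the next highest level the values were 0.19, -0.02, 0.45 and 0.30.

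Of 18 measured genes of NADPH supply beyond the 8, 16 were detected (88.9%, beside 44.4% of all measured genes), and Tktl1 and Mthfd2l were not. The median SD of the 16 was 0.37, beside 0.25 over all detected genes. Idh1, the cytosolic isocitrate dehydrogenase that makes NADPH, spread the most, with levels of 3.56, 3.72, 2.70 and 2.29 (3.07 ± 0.68). Replicates 1 and 2 were above replicates 3 and 4, as for Nqo1, and this held under all 4 other scalings and background corrections. Me2, a mitochondrial malic enzyme, had 2.45, 2.42, 1.70 and 1.67 (2.06 ± 0.43), and Rpe, the epimerase of the pentose phosphate pathway, had 1.53, 1.96, 1.05 and 0.56 (1.27 ± 0.60). Both kept replicates 1 and 2 above replicates 3 and 4 under the same alternatives. Idh2, the mitochondrial isocitrate dehydrogenase, ran the other way, with 6.93, 6.91, 7.31 and 7.66 (7.20 ± 0.36), and with spike-in scaling it turned to 7.38, 7.47, 7.15 and 6.81. Rpia, the isomerase that makes ribose phosphate, had 3.51, 3.71, 3.50 and 3.44 (3.54 ± 0.12).

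Of 21 measured further NRF2 targets, 18 were detected (85.7%, beside 44.4% of all measured genes). Their median SD was 0.23, beside 0.25 over all detected genes. Gclm, Gpx2 and Gstm1 were not detected. Hmox1, the haem oxygenase, had levels of 6.85, 6.89, 7.16 and 7.37 (7.07 ± 0.24), and Srxn1, the sulfiredoxin, 6.58, 6.57, 6.75 and 6.91 (6.70 ± 0.16). Both were higher on replicates 3 and 4, and lower there with spike-in scaling. Gclc, the catalytic subunit of the ligase that starts glutathione synthesis, had 3.91, 3.99, 3.78 and 3.53 (3.80 ± 0.20). Slc7a11, the cystine transporter, had 3.82, 3.76, 3.59 and 3.34 (3.63 ± 0.21), and Txnrd1, the thioredoxin reductase, 1.60, 1.76, 1.69 and 1.46 (1.63 ± 0.13). Gclc, Slc7a11 and Txnrd1 had their lowest value on replicate 4, as Nqo1 did, while a dimmer probe of Txnrd1 had 0.68, 0.40, 0.86 and 0.44, lowest on replicate 2. The widest spreads in this list were those of the ferritin subunits Ftl1, with 10.82, 10.81, 10.90 and 11.78 (11.08 ± 0.47), and Fth1, with 10.60, 10.46, 10.73 and 11.49 (10.82 ± 0.46). Both were highest on replicate 4, and with spike-in scaling neither was.

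All 6 measured subunits of the NADPH oxidase, the enzyme that spends NADPH on superoxide, were detected, beside 44.4% of all measured genes. Their median SD was 0.32, beside 0.25 over all detected genes. Ncf1, a cytosolic subunit, had 5.48, 5.44, 5.38 and 5.49 (5.45 ± 0.05) on its brightest probe, with an SD of 0.20 on its other probe and of 0.23 with normexp. Cyba, a membrane subunit, had 10.17, 10.09, 10.52 and 11.02 (10.45 ± 0.43). Its SD was 0.15 with quantile normalization and 0.16 with normexp. With spike-in scaling its levels were 10.61, 10.65, 10.36 and 10.17, lowest on replicate 4. Cybb, the catalytic subunit, had 0.74, 1.04, 0.91 and 0.63 (0.83 ± 0.18), and Rac1, a GTPase that activates the complex, had 4.08, 4.19, 2.83 and 4.03 (3.78 ± 0.64), low on replicate 3.

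**Figure D5:**
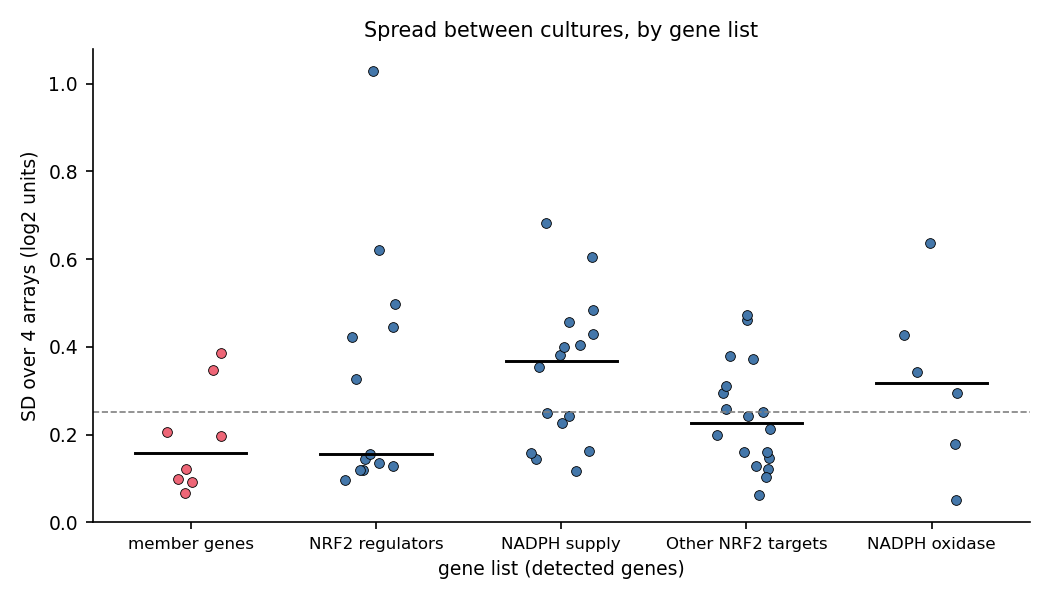
SD over the 4 arrays (log2 units) of each detected gene of the 4 lists and of the 8 genes, 1 point per gene, bars at the medians and a dashed line at the median of all detected genes. The medians were 0.16 for the 8 genes, 0.16 for NRF2 regulators, 0.37 for NADPH supply, 0.23 for other NRF2 targets and 0.32 for the NADPH oxidase. The list medians were computed on this scale only, and single SDs moved both ways with the scaling. With spike-in scaling the SD of Cul3 rose from 0.13 to 0.76, and that of Mafg fell from 0.62 to 0.18.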

How the data were processed

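RNA from 4 exposed cultures, which the series text calls biological replicates, was read on 4 one-colour arrays of 1 slide and 1 scan. Per the file headers and the submitters' processing notes, the deposited values are linear intensities of single spots, from Agilent Feature Extraction 11.0.1.1, background-corrected within each array and not scaled between arrays. The headers name an older genome build, so no coordinates were taken from the arrays.

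Computed here: log2 of the processed signal, with spots marked non-uniform or as population outliers left out, spots of a probe averaged, and the array's 75th percentile over sample probes subtracted. Probes were named by accession through the RefSeq table of GRCr8; 21109 of 45598 matched. Of the measured genes, 3657 had several probes and took the brightest. A gene was detected when, on all 4 arrays, at least 1 probe was well above background in over 50% of its spots. Low blocks were squares of 12 by 12 spots, with at least 10 usable spots, whose median deviation from the probes' medians was under -0.5. Arrays give no read depth; their number limits the precision.

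The 8 genes and the 4 lists were chosen with earlier results of these data known. Named genes were the 8, then, in each list, those not detected, the 2 with the largest SD, those deviating on an array and those of fixed pathway steps, and the 5 nearest profiles. Alternatives were normexp background correction (offset 50), quantile, spike-in and detected-probe scaling, the mean of all probes, all spots kept, low blocks left out, other detection calls, and each replicate left out. A search of the proteins for KEAP1-binding motifs was planned and not done here. Steps were tested on simulated data. The tools were Python 3.11.15, numpy 2.4.6, pandas 2.3.3, scipy 1.17.1, matplotlib 3.10.9, R 4.3.3 and limma 3.58.1.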

Additional observations from a re-analysis of the deposited data

Results flagged for a closer look

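Of 61 list genes and members examined for 1 array far from the other 3 (the gap to the nearest other value divided by the whole range, against Dixon's 95% critical value), 6 passed and none of the 8 genes did; the highest ratio among those was 0.609, for Pgd. The critical value nominally lets about 1 in 20 genes pass by chance, if values on the arrays are independent. The share of all detected genes that pass was not computed, so the 6 have no measured background beside them. Txn1 was high on replicate 4 with a ratio of 0.917, and 2 of the probe's spots lay in low blocks of replicate 3. Replicate 4 became its lowest array with quantile normalization (10.86, 10.93, 10.73 and 10.53), with normexp (10.10, 10.12, 9.76 and 9.64) and with spike-in scaling (11.09, 11.19, 10.49 and 10.09). Ftl1 was high on replicate 4 with 0.908; with quantile normalization its levels were 11.10, 11.17, 10.92 and 11.10. Rac1 was low on replicate 3 with 0.884, outside the low blocks. Bach1 was low on replicate 1 with 0.878 (with spike-in scaling -0.03, 0.37, -0.33 and -1.06, lowest on replicate 4). Btrc, a ubiquitin ligase subunit that also acts on NRF2, was high on replicate 1 with 0.855. It stayed highest there with quantile normalization (2.05, beside 1.81 on replicate 2). With spike-in scaling it had 2.47 and 2.35 on replicates 1 and 2 and 0.95 on replicate 4, so replicate 1 no longer stood apart. Its dimmer probe had -1.73, -1.92, -1.65 and -1.76, highest on replicate 3. Mthfd1, a folate enzyme that makes NADPH, was low on replicate 4 with 0.855. It stayed lowest there with normexp, but with 2.41, 2.06 and 1.61 on replicates 2 to 4 that array stood less apart.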

How the results depend on the processing

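No paired analysis was possible because there is 1 group. All 8 genes were detected under every detection call tried, while the share of all measured genes ranged from 38.6% (every probe required) to 55.4% (the positive-and-significant mark). Of 88 mean levels recomputed, 81 stayed within 1 SD and the 7 that moved were all under normexp background correction. Many of the 88 could not move, so the 81 are no measure of robustness. Spike-in and detected-probe scaling keep each gene's mean by construction. For genes with 1 named probe, the mean of all probes changes neither means nor SDs. Leaving out 1 array cannot shift a mean by 1 SD. Of 88 SDs, 20 moved. The scaling had the widest effect. Spike-in scaling gave a median SD of 0.57 for the 8 genes (0.58 for all detected genes) and median shifts of 0.40, 0.47, -0.10 and -0.79, while normexp gave 0.089 on replicate 2 and -0.29 on replicate 4. Less the median of all detected genes, the shift on replicate 4 was -0.03 on the scale used, -0.07 with quantile normalization and -0.16 with normexp. Relative to genes of the same level band, an alternative chosen after seeing the data, the shifts were 0.04, 0.03, 0.02 and -0.09. Leaving out each replicate in turn gave a median SD of 0.12 to 0.16, shifts of -0.09 to -0.01, -0.11 to -0.06, 0.00 to 0.10 and 0.01 to 0.11 on replicates 1 to 4, and pair differences of 0.44 to 0.50 (Nqo1 and Osgin1) and 0.03 to 0.06 (Taldo1 and Me1). The pair differences and the ranks of the pairs were added after seeing the data.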
